A study of Arabidopsis thaliana with 28 samples.

Results

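The transcriptome of Arabidopsis thaliana seedlings was compared between 2 temperature regimes in the middle of the night, at ZT20 (ZT counts the hours since lights on). Whole seedlings aged 7 d were grown in long days of 16 h light and 8 h dark. The constant regime held 17 °C throughout. The oscillating regime warmed the seedlings to 27 °C between ZT4 and ZT12 and kept them at 17 °C otherwise. At ZT20 all seedlings were therefore at 17 °C and in darkness, 8 h after the end of the warm period and 4 h after lights off. The 4 libraries taken at that time were the wild type Col-0 in the constant and in the oscillating regime and a pif7 mutant in both, out of 28 libraries in the series, with 1 library per condition. The labels give 27 °C for the oscillating libraries of ZT20 too, and the growth protocol gives their actual temperature. The allele of pif7 is not named in the labels, and how many seedlings went into a library is not stated there.

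Plants time their morning genes with a circadian clock, in which the MYB factors CCA1 and LHY accumulate before dawn and repress genes of the evening. Genes of the light-harvesting antenna, which encode the proteins that bind chlorophyll around the photosystems, are also rhythmic and rise towards the day. Cold-regulated genes such as COR15A and COR15B, whose products protect chloroplast membranes during freezing, are controlled both by low temperature and by the clock. PIF7 is a basic helix-loop-helix factor of the phytochrome-interacting family that acts in responses to shade and warmth.

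The mutated gene, PIF7 (AT5G61270), lies on the minus strand of TAIR10 chromosome 5, from 24638773 to 24640600. Its level at ZT20 was 13.4 TPM in constant and 8.42 TPM in oscillating Col-0, against 2.33 and 3.53 TPM in pif7, where TPM is the deposited abundance per gene length and library. Both pif7 libraries lay below both Col-0 libraries, which goes with their labels, and the transcript was still detected in the mutant. PIF7 did not pass the test between regimes (log2 difference -0.21 ± 0.31 SE, limma adjusted p = 0.806). The 4 libraries held 1.87 to 2.63 gigabases. As the markers of cell types, the summed level of 20 antenna genes was 12863 to 24927 TPM, that of 21 root genes 1785 to 2484 TPM, that of 12 stomatal genes 157 to 216 TPM and that of 11 seed storage genes 1.45 to 6.51 TPM. The root sums of the 2 regimes overlapped, and CRU2, a seed storage globulin, was listed at 0 in all 4 libraries.

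At ZT20 the cold-regulated pair COR15A and COR15B stood far above their constant level in seedlings that had been warm by day, and a few genes of the morning clock and the antenna, among them CCA1, LHY and the LHCB2 genes, stood far below it. Each gene was tested for a difference between regimes, oscillating minus constant, averaged over Col-0 and pif7 on the log2(TPM + 1) scale. Of 21031 genes tested, 184 (0.875%) passed in limma at an adjusted p under 0.05. Of these 45 (0.214%) were higher and 139 (0.661%) were lower in the oscillating regime, and 2301 genes had an unadjusted p under 0.05. The counts of the gene lists below are to be read beside these shares of all genes. The difference was at least 2-fold for 25 of the 45 higher and for 76 of the 139 lower genes, and at least 4-fold for 2 and 12 of them. With TPM values used as deposited, without rescaling between libraries, the median of all genes moved to 0.14 and 72 genes were higher and 97 lower. There is 1 library per condition, so p sets the mean difference at ZT20 against how far the 2 genotypes differed in their regime difference. That spread was pooled over the 7 times, so a small p does not by itself mean that the genotypes agreed at ZT20. With 1 library per condition, p cannot separate how seedling pools vary from how the genotypes differ. With the pif7 pair alone 20 genes passed, and with the Col-0 pair alone 57.

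**Figure D1:**
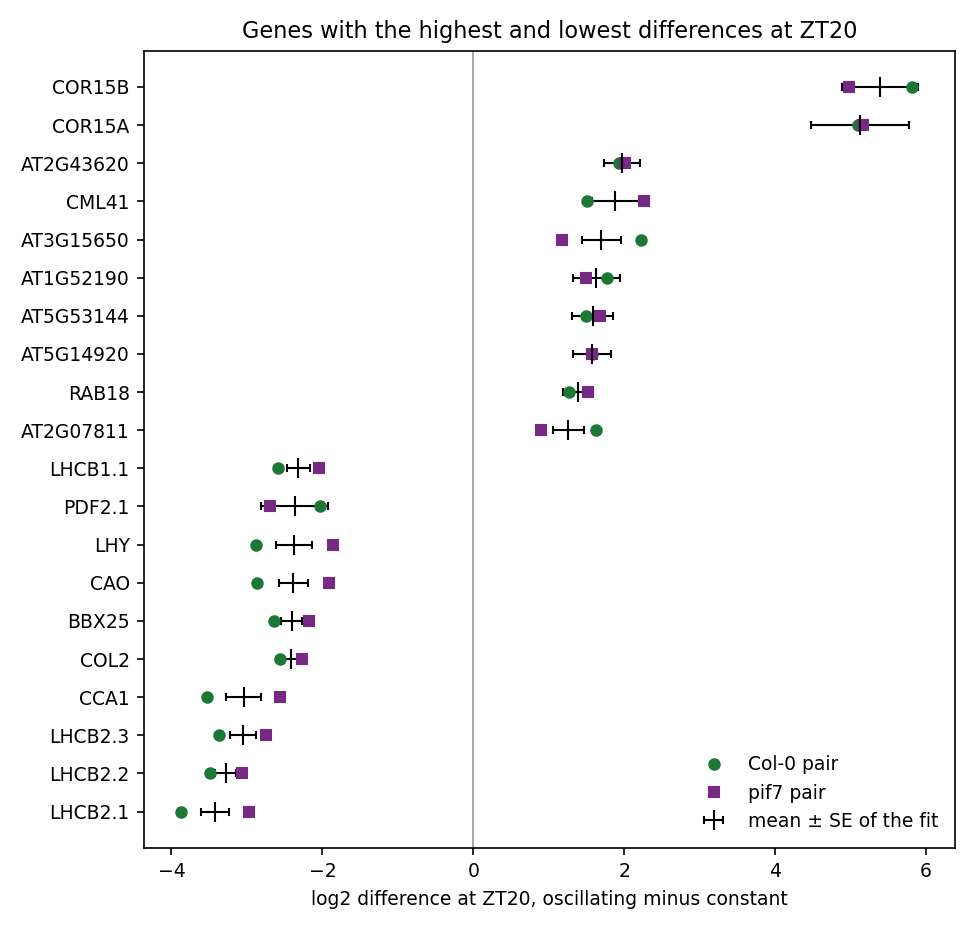
The 10 highest and 10 lowest genes of the rule for named genes, by their log2 difference at ZT20 (oscillating minus constant). Circles are the Col-0 pair, squares the pif7 pair, and the black mark with bars is the mean with its standard error from limma. The rule admits only genes for which both genotypes lie on the same side of 0. COR15B and COR15A, at 5.39 and 5.13, are apart from the other higher genes, which lie between 1.26 and 1.97.

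COR15A (AT2G42540) and COR15B (AT2G42530) are neighbours on chromosome 2, at 17711032 to 17712330 and 17709036 to 17709945 on the minus strand of TAIR10. COR15A had 8.91 TPM in constant and 368 TPM in oscillating Col-0, and 8.37 against 386 TPM in pif7. COR15B had 4.84 against 357 TPM in Col-0 and 6.79 against 281 TPM in pif7. Every oscillating library was far above every constant one for both genes. The fitted differences were 35.0-fold for COR15A (log2 5.13 ± 0.65 SE, limma adjusted p = 0.0035) and 42.0-fold for COR15B (log2 5.39 ± 0.50 SE, limma adjusted p = 0.000336). COR15B also passed with either genotype's pair alone. COR15A passed with both pairs but with neither pair alone, where its log2 difference was 5.16 without Col-0 (adjusted p = 0.147) and 5.10 without pif7 (adjusted p = 0.0883). The proteins are close relatives, and how reads that match both genes were assigned is not stated.

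The course over the day placed the night value of both genes in context. In constant Col-0, COR15A was 139 TPM at ZT8, 126 at ZT12, 47.6 at ZT16 and 8.91 at ZT20. In oscillating Col-0 it was 10.6 TPM at ZT8, in the warm hours, then 122 at ZT12, 557 at ZT16 and 368 at ZT20, and was still 196 TPM at ZT0 against 10.08 in the constant regime. The constant libraries thus had their high values in the second part of the light period and the oscillating libraries in the evening and night. The pif7 libraries had the same order of times in the oscillating regime from ZT8 to ZT16, with 4.52, 13.8 and 229 TPM, and then 386 TPM at ZT20. COR15B followed the same course in Col-0, with 249.9 TPM at ZT12, 595 at ZT16 and 357 at ZT20 in the oscillating regime against 196, 61.5 and 4.84 in the constant one.

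**Figure D2:**
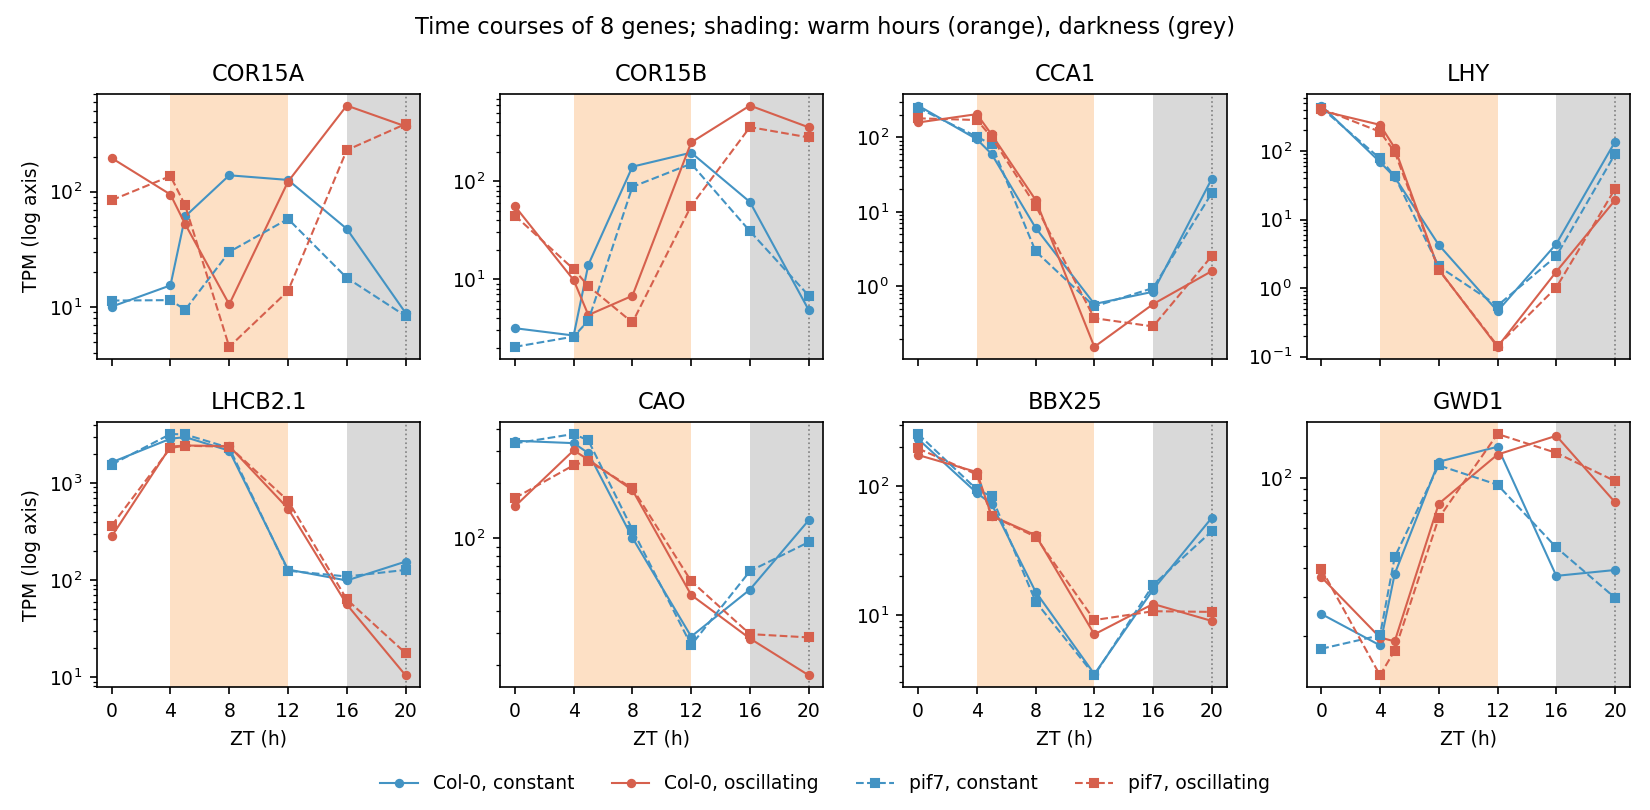
TPM (log axis) against ZT in hours for 8 genes, with 1 library per point. Blue is the constant and red the oscillating regime, circles with solid lines are Col-0 and squares with dashed lines pif7, orange marks the warm hours, grey the dark, and the dotted line ZT20. COR15A and COR15B are higher in the oscillating regime at ZT16, ZT20 and ZT0, and CCA1, LHY, LHCB2.1, CAO and BBX25 are lower there at ZT20 in both genotypes.

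Beside the COR15 pair, the cold acclimation list held 1 called gene. Of 23 cold genes tested, 2 were higher and 1 was lower in limma, against 0.214% higher and 0.661% lower over all genes. At an unadjusted p under 0.05 there were 7 of the 23, against 2301 of all 21031 genes. The median log2 difference was 0.11, against 0.00 over all genes. CBF2, a factor that activates cold-regulated genes, was lower, with 3.42 against 0.822 TPM in Col-0 and 5.14 against 1.72 TPM in pif7 (log2 difference -1.31 ± 0.25 SE, limma adjusted p = 0.0397). It passed under 10 of 18 alternative settings, but not with a pseudocount of 0.1 or 5, with no filter, or without ZT4 or ZT5. CBF2 also did not pass from the 16 libraries outside the warm window or with either pair alone (log2 difference -1.30 without Col-0 and -1.31 without pif7). CBF1 and CBF3, its relatives, had -0.52 and -0.54 and did not pass. COR413IM1, a chloroplast membrane protein of the cold response, had 18.8 against 47.3 TPM in Col-0 and 16.2 against 69.2 TPM in pif7, and did not pass (1.499 ± 0.33 SE, adjusted p = 0.0653). KIN1, RD29A, COR47 and LTI30, other cold-induced genes, had differences of -0.31, 0.60, 0.33 and -0.98, and none of these passed.

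Genes of the abscisic acid and dehydration list gave 1 higher and 1 lower of 21 tested, with a median of 0.03. RAB18, a dehydrin induced by abscisic acid, had 2.75 against 8.74 TPM in Col-0 and 2.83 against 11.5 TPM in pif7. Its oscillating libraries lay above its constant ones at similar ratios (log2 difference 1.39 ± 0.20 SE, limma adjusted p = 0.00756), though it did not pass with either pair alone (adjusted p = 0.147 without Col-0 and 0.182 without pif7). ABA1, the zeaxanthin epoxidase of abscisic acid synthesis, was lower by -0.81 ± 0.16 SE (adjusted p = 0.0455) and passed under 6 of 19 alternatives and with neither pair alone. LEA7, a late embryogenesis abundant protein, and RD29B, a dehydration gene, had 1.203 and 1.14 and did not pass. The summed level of the 11 seed storage genes moved the same way, from 1.48 to 4.32 TPM in Col-0 and from 1.45 to 6.51 TPM in pif7, and the part of seed-type transcripts in these values was not tested. PER1, a peroxiredoxin that RefSeq describes as limited to seeds and which was picked after its values were seen, was among the higher genes, with 0.391 against 3.79 TPM in Col-0 and 0.335 against 2.79 TPM in pif7 (log2 difference 1.51 ± 0.23 SE, adjusted p = 0.0122).

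The starch and maltose list, which holds genes of starch synthesis and of its breakdown, had 2 higher genes and 1 lower of 29 tested, with a median of 0.20. GWD1, the glucan water dikinase that starts starch degradation, had 39.3 against 78.3 TPM in Col-0 and 29.6 against 97.3 TPM in pif7 (log2 difference 1.17 ± 0.22 SE, limma adjusted p = 0.0355). AMY3, a plastid alpha-amylase, had 15.9 against 34.5 TPM and 11.8 against 37.1 TPM (1.16 ± 0.18 SE, adjusted p = 0.0158). For both genes the regimes did not overlap, and the pif7 difference was the larger one. GWD1 and AMY3 passed with neither pair alone (adjusted p = 0.495 and 0.289 without pif7, and 0.170 and 0.147 without Col-0), and GWD1 did not pass without ZT5 or without ZT8 either. PHS2, a cytosolic glucan phosphorylase, was just outside the threshold (0.84 ± 0.17 SE, adjusted p = 0.0502). BAM9, named as a putative beta-amylase, was lower, with 84.4 against 26.4 TPM in Col-0 and 56.7 against 29.8 TPM in pif7 (-1.43 ± 0.20 SE, adjusted p = 0.00593), but did not pass without Col-0 (-1.11, adjusted p = 0.274).

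The other genes with the highest differences had low or moderate levels. AT2G43620, annotated as a chitinase family protein, had 3.89 against 19.2 TPM in Col-0 and 1.77 against 11.8 TPM in pif7 (log2 difference 1.97 ± 0.24 SE, limma adjusted p = 0.00296). CML41, a calmodulin-like protein, had 1.58 against 6.94 TPM and 2.31 against 17.1 TPM, a difference of 1.88. AT1G52190, which RefSeq describes as a low affinity nitrate transporter of the phloem, had 21.8 against 83.2 TPM and 15.8 against 53.5 TPM, a difference of 1.63. In these genes both oscillating libraries were above both constant ones. AT5G14920, a GASA domain protein of gibberellin signalling, had 1.57, AT3G15650 1.69 and AT5G53144 1.58, and AT2G07811, a pseudogene of a mitochondrial protein, had 1.26. The 63 mitochondria-encoded genes tested had a median of 0.33 with 53 above 0, against 0.00 and 10612 of all 21031 genes. Whether AT2G07811 shares reads with them was not tested. With the Col-0 pair alone AT3G15650 and AT2G07811 still passed (adjusted p = 0.0185 and 0.0303), whereas AT2G43620, CML41, AT1G52190, AT5G14920 and AT5G53144 passed with neither pair alone, and AT1G52190 passed neither without ZT4 nor without ZT5.

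Of the heat shock list, 1 gene passed at ZT20. Of 33 heat genes tested 1 was higher and 0 were lower in limma, with a median of 0.11. Over all genes 0.214% were higher and 0.661% lower, so the heat list was not short of called genes. HSP70, a cytosolic chaperone, had 4.07 against 8.29 TPM in Col-0 and 3.79 against 10.06 TPM in pif7 (log2 difference 0.89 ± 0.17 SE, adjusted p = 0.0405), and passed under 8 of 19 alternatives, not without ZT4, ZT5 or ZT16, and with neither pair alone (adjusted p = 0.302 without Col-0 and 0.440 without pif7). HSP17.4, a small heat shock protein, was listed at 0 in both constant libraries and at 1.89 and 0.781 TPM in the oscillating ones, and did not pass (adjusted p = 0.1). MBF1C, a heat-induced coactivator, had 10.3 against 11.6 TPM in Col-0 and 14.4 against 7.28 TPM in pif7 (adjusted p = 0.687).

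On the lower side, the genes of photosynthesis formed the largest group among the 24 lists. Of the 20 antenna genes tested, 13 were lower and 0 were higher in limma, against 139 lower (0.661%) of all genes. The median of the 20 was -0.86, and the other 7 members were also below 0 in both genotypes. In bulk tissue, less RNA per cell and fewer cells of a type cannot be told apart. LHCB2.1, a chlorophyll-binding protein of the major antenna of photosystem II, had 154.9 against 10.4 TPM in Col-0 and 127 against 17.7 TPM in pif7 (log2 difference -3.42 ± 0.18 SE, limma adjusted p = 6.34e-06). LHCB2.2 had 69.3 against 5.65 TPM and 69.6 against 8.57 TPM (-3.28 ± 0.14 SE, adjusted p = 9.42e-07). LHCB2.3 (AT3G27690) had 55.3 against 4.81 TPM and 54.8 against 8.46 TPM (-3.05 ± 0.17 SE). The constant and oscillating libraries of these genes were far apart, and the 2 constant libraries of LHCB2.2 and LHCB2.3 were close to each other.

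LHCB1.1, a member of the most abundant antenna family, had 1434 against 258 TPM in Col-0 and 1365 against 379.9 TPM in pif7 (log2 difference -2.32 ± 0.15 SE, limma adjusted p = 2.04e-05). Its oscillating libraries were again below both constant ones, and like the LHCB2 genes it passed with either pair alone. The other called antenna genes had differences from -0.72 (LHCB4.1) to -1.96 (LHCB4.2), at levels from 172 TPM upwards. LHCB1.1 and LHCB1.2, and LHCB2.1 and LHCB2.2, are near-identical copies among which reads may be split, so the size of each one's difference is uncertain. At ZT12 the median of the antenna list was above 0, at 0.39, and at ZT16 and ZT0 it was -0.37 and -1.38.

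**Figure D3:**
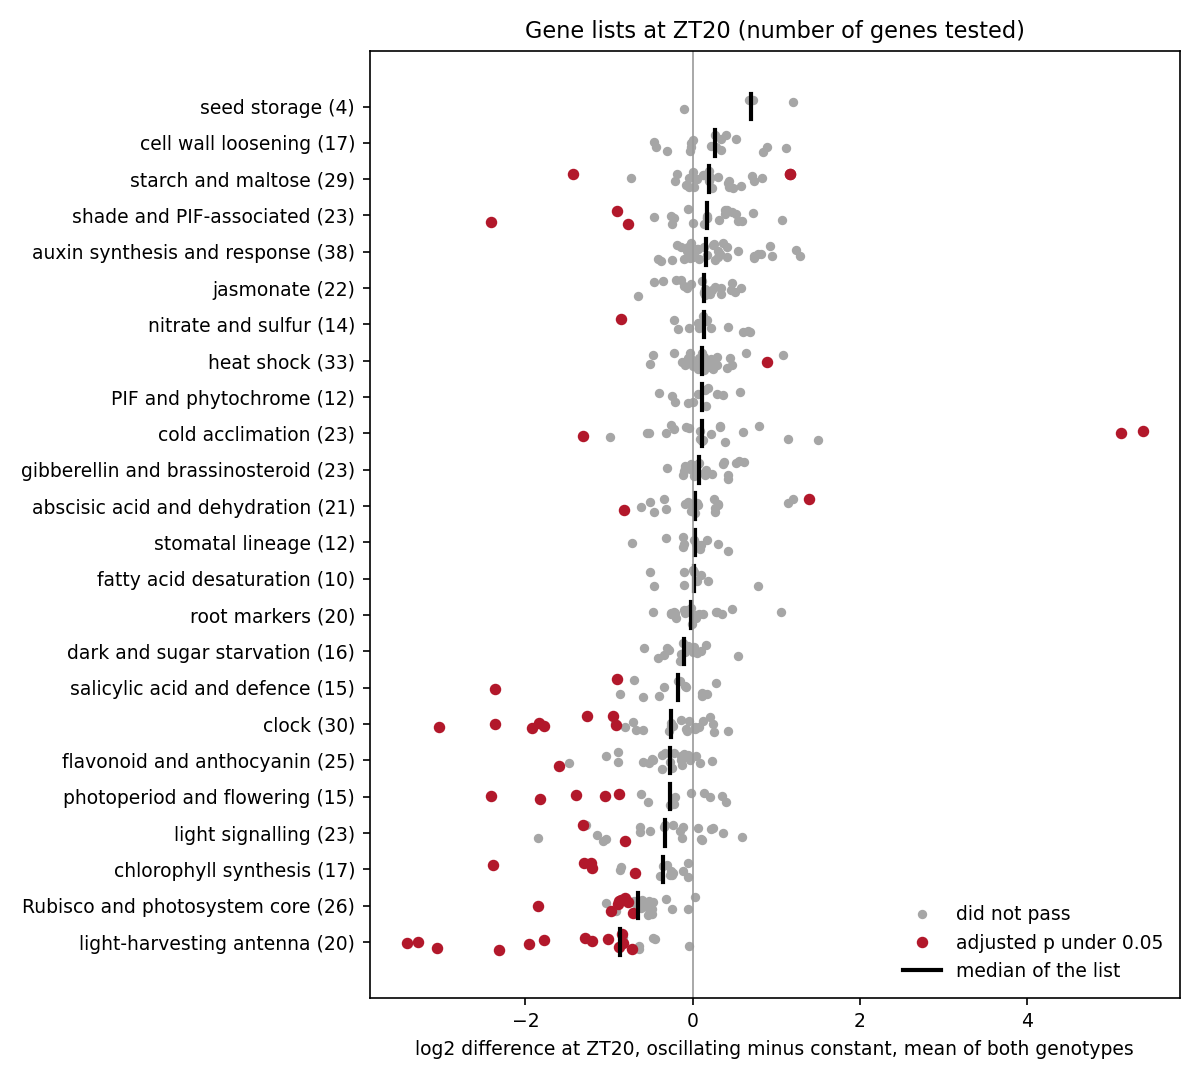
Log2 differences at ZT20 of the members of 24 gene lists, 1 point per gene (vertical scatter within a list carries no value). Red points passed the limma test, grey points did not, and black bars are list medians, with the number of genes tested in brackets. The antenna, photosystem and chlorophyll lists lie to the left with medians of -0.86, -0.66 and -0.36, while the cold list has COR15A and COR15B far to the right and a median of 0.11.

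The core of the photosystems and chlorophyll synthesis were lower as well. Of 26 genes for Rubisco and photosystem subunits, 8 were lower and 0 higher in limma, with a median of -0.66, and 25 were below 0 in both genotypes. PSAD-2, a stromal subunit of photosystem I, had 363 against 96.0 TPM in Col-0 and 368 against 133 TPM in pif7 (log2 difference -1.85 ± 0.12 SE, adjusted p = 2.04e-05), with no overlap and a call from either pair alone. PSBQ-2, of the oxygen-evolving complex, was lower by -0.98 ± 0.20 SE (adjusted p = 0.0492) but passed under 7 of 19 alternatives, not without ZT4, ZT5 or ZT8, and with neither pair alone. PSAK and PSAN, other photosystem I subunits, had -1.03 and -0.91 and did not pass. Of the 133 plastid-encoded genes tested 0 passed in limma, against 0.875% of all genes, and 20 had an unadjusted p under 0.05. Their median was -0.64 in the Col-0 pair and 0.08 in the pif7 pair. The plastid share of TPM was 5.43% in constant and 3.28% in oscillating Col-0, and 3.77% and 3.95% in pif7, so the lower nuclear photosynthesis genes in both genotypes went with a lower plastid share in Col-0 and not in pif7. The part of the plastid share in these results was not tested.

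Chlorophyll synthesis had 5 lower and 0 higher of 17 genes in limma, with a median of -0.36 and no member above 0. CAO, the oxygenase that makes chlorophyll b, had 125.6 against 17.7 TPM in Col-0 and 95.2 against 28.5 TPM in pif7 (log2 difference -2.39 ± 0.19 SE, adjusted p = 9.48e-05). Its regimes were far apart, and it passed with either pair alone. HEMA1, the glutamyl-tRNA reductase at the start of the pathway, had 349.8 against 158 TPM and 375 against 170.1 TPM (-1.30 ± 0.18 SE, adjusted p = 0.00593). GUN4, a regulator of magnesium chelatase, had 276 against 108 TPM and 244 against 145 TPM (-1.21 ± 0.15 SE, adjusted p = 0.00316). CRD1, a subunit of the cyclase, had 972 against 361 TPM and 832 against 524 TPM (-1.21 ± 0.18 SE, adjusted p = 0.0113). In all of them both oscillating libraries were lower than both constant ones. Without the Col-0 pair HEMA1, GUN4 and CRD1 had adjusted p = 0.149, 0.165 and 0.306, and without the pif7 pair HEMA1 had 0.132.

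The clock list had 8 lower and 0 higher of 30 genes in limma, with a median of -0.26. CCA1, a MYB repressor of the morning loop, had 27.9 against 1.61 TPM in Col-0 and 17.9 against 2.57 TPM in pif7 (log2 difference -3.04 ± 0.23 SE, limma adjusted p = 8.11e-05). LHY, its partner, had 137 against 19.2 TPM and 90.73 against 28.1 TPM (-2.37 ± 0.24 SE, adjusted p = 0.000659). Both genes were lower in every oscillating library than in any constant one and passed with either pair alone. RVE1, a related MYB factor that links the clock to auxin, had 84.5 against 18.7 TPM and 65.3 against 23.61 TPM (-1.93 ± 0.21 SE, adjusted p = 0.0012, and 0.122 without Col-0). LNK2, a coactivator that works with RVE factors, had 15.05 against 2.78 TPM and 11.1 against 3.75 TPM (-1.84 ± 0.15 SE, adjusted p = 0.000101). The remaining 4 called members, read off after their values were seen, were RVE8, LNK3, LUX and RVE7, with -1.78, -1.27, -0.95 and -0.92.

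Evening genes of the clock other than LUX did not pass. With 0.875% of all genes passing, that is not a result about these genes. TOC1, a repressor of CCA1, had a difference of -0.23, GI 0.13, ELF3 0.07, PRR5 -0.68 and FKF1 0.43, genes that were picked after the values were seen. Photoperiod genes had 5 lower and 0 higher of 15 in limma, with a median of -0.27. COL2, a relative of CONSTANS, had 60.4 against 10.15 TPM in Col-0 and 46.8 against 10.4 TPM in pif7 (log2 difference -2.41 ± 0.19 SE, adjusted p = 9.48e-05). The 2 oscillating libraries of COL2 were close to each other and far below the constant ones. CDF1 and CDF2, Dof factors that delay flowering, had -1.82 ± 0.18 SE and -1.39 ± 0.14 SE (adjusted p = 0.000483 and 0.000659), and CDF1 was just outside the threshold without Col-0 (-1.65, adjusted p = 0.0506). COL1 had -1.04 ± 0.20 SE (adjusted p = 0.0354), and passed under 9 of 19 alternatives, not without ZT4, ZT5 or ZT16, and with neither pair alone.

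Light signalling and shade genes included a few strongly lower B-box factors. BBX25, a B-box protein that binds the COP1 ubiquitin ligase, had 57.0 against 8.98 TPM in Col-0 and 44.8 against 10.6 TPM in pif7 (log2 difference -2.41 ± 0.14 SE, limma adjusted p = 7.51e-06), with no overlap and a call from either pair alone. BBX19 had 16.1 against 6.98 TPM and 17.0 against 6.62 TPM (-1.31 ± 0.18 SE, adjusted p = 0.00555, with 0.133 without Col-0 and 0.142 without pif7). Of 23 light signalling genes 2 were lower and 0 higher, with a median of -0.33, and of 23 shade and PIF-associated genes 3 were lower and 0 higher, with a median of 0.17. BBX24 and RPT2, a phototropin signalling protein, were the others among the latter, with -0.78 and -0.91, and passed with neither pair alone. ELIP2 and HYH, an early light-induced protein and a relative of HY5, had -1.85 and -1.27 and did not pass (adjusted p = 0.0745 and 0.0599).

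No gene of the growth lists passed at ZT20 in the main fit. Over all 21031 genes 184 (0.875%) passed and 2301 had an unadjusted p under 0.05. At that share, 0 in lists of this size is not a result about their members. In limma 0 of 12 PIF and phytochrome genes, 0 of 38 auxin genes, 0 of 17 cell wall loosening genes and 0 of 23 gibberellin and brassinosteroid genes passed, with medians of 0.11, 0.16, 0.26 and 0.07 and with 1, 4, 2 and 6 members at an unadjusted p under 0.05. IAA29, an auxin response repressor, had 0.789 against 7.46 TPM in Col-0 and 1.01 against 1.84 TPM in pif7 (log2 difference 1.24 ± 0.87 SE, adjusted p = 0.629). HFR1, an atypical bHLH of shade signalling, had 3.70 against 14.98 TPM and 3.19 against 5.61 TPM (1.07 ± 0.46 SE, adjusted p = 0.431). EXPA8, an expansin, had 8.66 against 31.1 TPM and 7.49 against 14.02 TPM (1.12 ± 0.50 SE, adjusted p = 0.448). In these 3 genes both pairs pointed upwards, and the Col-0 pair was the larger. Each of the 3 passed under 1 of 19 alternatives, the fit to the 4 ZT20 libraries alone. That fit has 1 residual degree of freedom, and the spread of the main fit pools all 7 times, the warm hours included. Why the 2 fits differ was not tested. PIF3, PIF4, PIF1, PIF5, PIF6 and UNE10 had differences of 0.57, 0.37, 0.30, -0.40, -0.25 and -0.05, and the phytochromes PHYA to PHYE lay between 0.01 and 0.19.

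Of the remaining lists, flavonoid and anthocyanin genes had 1 lower of 25 in limma and a median of -0.27. DFR, the dihydroflavonol reductase of anthocyanin synthesis, had 15.8 against 5.37 TPM in Col-0 and 12.7 against 3.69 TPM in pif7 (log2 difference -1.60 ± 0.28 SE, adjusted p = 0.0269, and above 0.05 with either pair alone). Salicylic acid and defence genes had 2 lower of 15. PDF2.1, a defensin, had 17.0 against 3.65 TPM and 24.9 against 3.46 TPM (-2.37 ± 0.44 SE, adjusted p = 0.0351), but did not pass without ZT4, ZT5 or ZT8 or with either pair alone. ICS1, the isochorismate synthase of salicylic acid synthesis, was at -0.90 ± 0.17 SE (adjusted p = 0.0351), and APR2, a sulfate reductase and the 1 lower gene of 14 in the nitrate and sulfur list, was at -0.85 ± 0.17 SE (adjusted p = 0.0492). ICS1 and APR2 passed under 10 and 7 of 19 alternatives, neither of them without ZT4, ZT5 or ZT8 or with either pair alone. In limma 0 of 22 jasmonate, 16 dark and sugar starvation, 10 fatty acid desaturation, 20 root, 12 stomatal and 4 seed storage genes passed. At an unadjusted p under 0.05 there were 0, 3, 2, 1, 1 and 2, against 2301 of all 21031 genes. With 0.875% of all genes passing, 0 in lists this small is not a result about their members.

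The genes lower at ZT20 were mostly those that climb towards dawn. In the constant regime 113 of the 139 lower genes (81.3%) rose from ZT16 to ZT0, against 9 of the 45 higher genes (20.0%) and 48.9% of all genes tested, and those 4 libraries do not enter the ZT20 difference. CCA1 rose there from 0.85 to 266 TPM in Col-0 and from 0.95 to 248 TPM in pif7. In the oscillating regime CCA1 was 158 and 179.7 TPM at ZT0. LHY was 461 and 428 TPM at ZT0 in the constant and 387 and 415 TPM in the oscillating regime. By dawn the regimes were thus much closer for CCA1 and LHY than at ZT20. LHCB2.1 differed at dawn as well, with 1636 against 282 TPM in Col-0 and 1552 against 364 TPM in pif7.

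**Figure D4:**
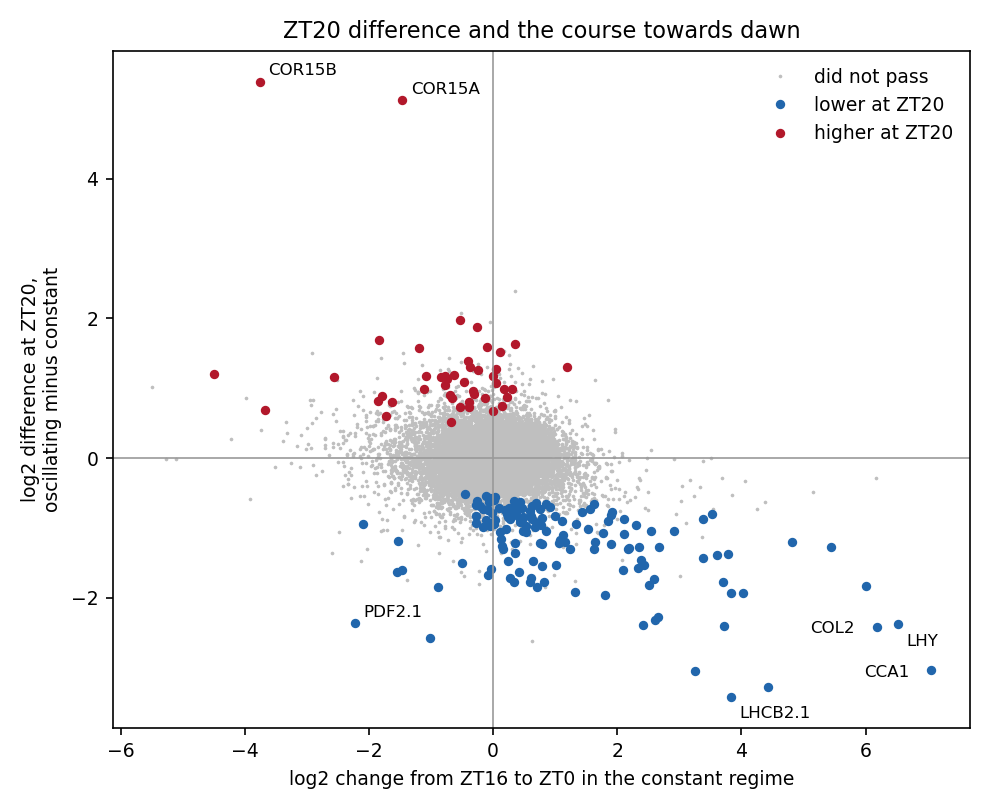
The log2 difference at ZT20 (oscillating minus constant, vertical axis) against the log2 change from ZT16 to ZT0 in the constant regime (horizontal axis), mean of both genotypes, for 21031 genes. Blue genes were lower and red genes higher in limma, and grey genes did not pass. Of the blue genes 81.3% lie to the right of 0 and of the red genes 20.0%, with CCA1, LHY and COL2 at the far right and COR15B on the left.

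At the neighbouring times, which use other libraries, the called genes mostly had the same sign. At ZT16, 41 of the 45 higher genes were above 0, and 9 of the 139 lower genes were. At ZT0 these numbers were 45 and 9, and over all genes 50.2% and 51.6% were above 0 at ZT16 and ZT0. At ZT12, the last warm time point, 30 of the 45 higher genes (66.7%) and 87 of the 139 lower genes (62.6%) were above 0, against 50.6% of all genes, with medians of 0.58 and 0.22.

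The change within the night was tested as the ZT20 minus the ZT16 difference, and 9 genes passed in limma (0.0428%), all of them lower, with 872 at an unadjusted p under 0.05. LHCB2.2 had the most negative value, -2.55 ± 0.19 SE (adjusted p = 0.000675), followed by CCA1 at -2.55 ± 0.33 SE, LHCB2.1 at -2.42 ± 0.26 SE, AT2G15020 at -2.22 ± 0.28 SE and COL2 at -2.10 ± 0.27 SE. AT2G15020, a gene without a described function in RefSeq, had 20.5 against 2.82 TPM in Col-0 and 14.8 against 3.41 TPM in pif7 at ZT20, and 8.45 against 10.9 TPM and 9.16 against 8.64 TPM at ZT16. Its regimes thus parted between lights off and ZT20. The other 4 genes, named after their values were seen, were CDF1, BBX25, LHCB3 and PRR7. COR15A and COR15B were high at ZT16 already and did not pass this test. The count was 2 without the Col-0 pair of ZT20 and 3 without ZT4.

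Against dawn, as the ZT20 minus the ZT0 difference, 7 genes passed in limma (0.0333%), 3 higher (0.0143%) and 4 lower (0.019%), with 961 at an unadjusted p under 0.05. CCA1 had -2.37 ± 0.33 SE, BBX25 -1.95 ± 0.19 SE, RVE8 -1.82 ± 0.25 SE and COL9 -1.32 ± 0.18 SE, and AT1G55960 had 2.90 ± 0.26 SE. At ZT0 itself CCA1, BBX25 and RVE8 had mean differences of -0.67, -0.45 and 0.05, closer to 0 than in the night. AT1G55960 was near its constant level at ZT20, with 13.2 against 9.91 TPM in Col-0 and 11.2 against 11.3 TPM in pif7. At ZT0 it had 306 against 35.1 TPM and 355 against 36.6 TPM, so the difference seen at dawn was not seen at ZT20. The count was 3 to 4 without any 1 of the times ZT4, ZT5, ZT8, ZT12 and ZT16 and without the Col-0 pair of ZT20.

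Against the warm hours (the mean of ZT5, ZT8 and ZT12), 1304 genes passed in limma (6.2%), 508 higher (2.42%) and 796 lower (3.78%), with 4692 at an unadjusted p under 0.05. COR15B and COR15A led with 7.06 ± 0.58 SE and 6.03 ± 0.75 SE, followed by AT3G62550 at 2.91 ± 0.40 SE, AT3G15650 at 2.81 ± 0.30 SE and RD29A at 2.66 ± 0.52 SE. RD29A, a cold and dehydration gene, had -3.48 at ZT8 and did not pass at ZT20 itself. The most negative genes were LHCB2.1 at -4.10 ± 0.21 SE, LHCB2.2 at -4.00 ± 0.16 SE, MBF1C at -3.93 ± 0.51 SE, CCA1 at -3.61 ± 0.27 SE and AT2G15020 at -3.50 ± 0.23 SE. MBF1C had its difference in the warm hours (5.53 at ZT5), whereas LHCB2.1 had 2.304 at ZT12 and the opposite sign at ZT20. The count was 664 without ZT8, 321 without the Col-0 pair of ZT20 and 424 without its pif7 pair.

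Whether the night difference depended on PIF7 was tested as the pif7 minus the Col-0 difference, and 0 genes passed in limma, with 1120 at an unadjusted p under 0.05 and a smallest adjusted p of 0.803. The spread for this test came from the same contrast at the other 6 times, the warm hours included. Any dependence on PIF7 at those times counted as spread, so the 0 cannot decide whether the night difference depended on PIF7. With no filter on low values 27 genes passed. The 5 genes with the smallest p were RPS7.2, RPS7.1, LHCB1.4, MIR398c and PIF5. RPS7.1, a plastid ribosomal protein gene listed with its copy RPS7.2, had 664 against 257 TPM in Col-0 and 366 against 457 TPM in pif7, a difference between genotypes of 1.60 ± 0.32 SE. LHCB1.4 had 1351 against 429 TPM and 1395 against 1039 TPM (1.14 ± 0.23 SE). PIF5 had 13.5 against 6.76 TPM and 9.12 against 12.2 TPM (1.19 ± 0.26 SE). In RPS7.1 and PIF5 the pairs pointed in opposite directions, and in LHCB1.4 both pointed down. Across 21031 genes the Col-0 and pif7 differences had a Pearson r of 0.28, a description over genes that share libraries. The lower genes had medians of -1.17 in Col-0 and -0.96 in pif7, and the higher genes 1.09 and 1.14. The absolute difference was larger in Col-0 than in pif7 for 89 of the 139 lower and 20 of the 45 higher genes, and for 8133 of all 21031 genes.

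Promoters of the genes that passed were described by motifs linked to the clock, light and stress. The window ran from 250 bases before to 50 after the gene start in the RefSeq annotation of the TAIR10.1 assembly, which differs from the annotation behind the deposited tables. The letters searched on both strands were CCGAC (the CRT/DRE core bound by CBF factors), CACGTG (the G-box bound by PIF and bZIP factors), AAAATATCT (the evening element bound by CCA1 and LHY), ACGTGGC (the abscisic acid responsive element, ABRE) together with a heat shock element, a spaced repeat of GAA. The G-box and the ABRE share letters, so 1 stretch can hold both. The G-box was in 25.2% of 139 lower, 6.98% of 43 higher and 8.81% of all 20742 promoters, and the ABRE in 21.6%, 4.65% and 4.72%. The evening element was in 4.32% of lower, 11.6% of higher (5 genes) and 2.999% of all promoters. CCGAC was in 15.1%, 16.3% and 16.1%, and the heat shock element was in 0.719%, 4.65% and 0.588%.

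The RefSeq start lay within 100 bases of the start in the deposited tables for 63.2% of these 20742 genes. Among those genes the G-box was in 30.2% of 86 lower, 10.5% of 19 higher and 9.66% of 13101 promoters, a restriction chosen after seeing the data. The ABRE was in 26.7%, 5.26% and 5.50% of them and the CRT/DRE core in 18.6%, 26.3% (5 genes) and 16.8%. The evening element was in 3.49%, 5.26% (1 gene) and 2.88%, so its share in the higher genes was lower than in the full set, and the heat shock element was in 1.16%, 10.5% (2 genes) and 0.557%. A motif match is a description of letters and not a binding site.

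Of the promoters, 6 are given here as their 250 bases before the RefSeq start, 5′ to 3′ on the gene's own strand, with the motifs in capitals. They are COR15A and those of the 10 lowest genes that hold a G-box or an ABRE there, chosen after the motif counts were seen and where both annotations place the start within 100 bases.
COR15A, chr2:17712331-17712580, minus strand: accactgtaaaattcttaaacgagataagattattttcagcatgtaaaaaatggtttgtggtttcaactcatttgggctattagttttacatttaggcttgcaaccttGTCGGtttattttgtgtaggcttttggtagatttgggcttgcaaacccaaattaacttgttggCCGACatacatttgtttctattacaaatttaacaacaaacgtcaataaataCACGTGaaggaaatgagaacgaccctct
LHCB2.3, chr3:10255656-10255905, plus strand: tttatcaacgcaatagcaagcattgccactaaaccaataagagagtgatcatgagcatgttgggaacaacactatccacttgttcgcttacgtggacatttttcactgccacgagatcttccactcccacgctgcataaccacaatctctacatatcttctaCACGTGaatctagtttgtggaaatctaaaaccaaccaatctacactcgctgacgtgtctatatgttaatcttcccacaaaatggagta
CCA1, chr2:19245341-19245590, plus strand: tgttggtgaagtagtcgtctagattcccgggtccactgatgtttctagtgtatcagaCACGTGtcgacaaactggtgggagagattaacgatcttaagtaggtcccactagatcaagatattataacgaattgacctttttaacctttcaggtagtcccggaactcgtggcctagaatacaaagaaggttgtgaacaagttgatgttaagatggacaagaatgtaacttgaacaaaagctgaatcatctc
CAO, chr1:16851272-16851521, minus strand: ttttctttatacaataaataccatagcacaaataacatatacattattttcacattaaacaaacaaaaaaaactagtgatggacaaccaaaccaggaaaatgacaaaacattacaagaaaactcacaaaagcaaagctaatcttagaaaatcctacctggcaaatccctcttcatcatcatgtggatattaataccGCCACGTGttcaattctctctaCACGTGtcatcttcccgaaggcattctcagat
LHY, chr1:37872-38121, minus strand: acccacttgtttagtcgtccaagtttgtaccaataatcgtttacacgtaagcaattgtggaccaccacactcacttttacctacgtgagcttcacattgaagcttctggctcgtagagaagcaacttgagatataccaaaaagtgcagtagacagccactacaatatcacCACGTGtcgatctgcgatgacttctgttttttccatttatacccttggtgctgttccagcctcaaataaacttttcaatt
LHCB1.1, chr1:10475970-10476219, minus strand: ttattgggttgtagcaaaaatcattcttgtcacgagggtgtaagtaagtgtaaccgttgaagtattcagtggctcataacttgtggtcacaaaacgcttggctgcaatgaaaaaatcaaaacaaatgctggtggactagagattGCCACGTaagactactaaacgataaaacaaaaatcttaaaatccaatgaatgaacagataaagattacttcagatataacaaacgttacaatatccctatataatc

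COR15A held 2 CRT/DRE cores, at 142 to 138 and 79 to 75 bases before the start, and a G-box at 28 to 23 bases. CAO held 2 G-boxes, at 52 to 47 and 32 to 27 bases, the first of them overlapping an ABRE at 54 to 48 bases on the opposite strand. CCA1, LHY and LHCB2.3 held 1 G-box each, at 193, 80 and 88 bases before the start, and LHCB1.1 held an ABRE at 106 bases. The window of COR15B is not shown, because the RefSeq start of COR15B lies 488 bases upstream of the one in the deposited tables. Among the higher genes, 5 held an evening element in the window with 50 bases after the start. They were GWD1, RAB18, CCL, AT5G44260 and GRP7, a clock-regulated RNA-binding protein. Only 1 of the 5 has starts within 100 bases of each other in both annotations, so the other windows rest on starts that differ. AMY3 held a CRT/DRE core and an ABRE.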

How the data were processed

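RNA was sequenced from whole seedlings, with 1 library for each of 2 genotypes, 2 regimes and 7 times. The regime was taken from the label of each library and the growth protocol. Per the submitters' processing notes, HISAT2 aligned the reads to TAIR10 and StringTie gave the abundances; versions, options and the strand setting are not given in the sources used here, so antisense and near-identical genes may share reads. Per the labels' protocols the library kit keeps strand. Per the file headers the authors deposited a coverage (signal per base), an FPKM and a TPM value per gene. Only the depth was taken from coverage and FPKM. As deposited, the TPM column is another unit than standard TPM: assembled loci sum to 1000000, and the 33602 reference genes, listed again and used here, sum to 1010427 to 1034801. The 28 libraries held 1.32 to 2.82 gigabases. Read counts were not used, so no counting interval is given.

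After median-ratio scaling of TPM, log2(TPM + 1) was modelled in limma (version 3.58.1, R version 4.3.3, with a variance trend) on all 28 libraries, with 14 terms for genotype by time and 7 for regime at each time. A gene was tested if it reached a TPM of 1 in 2 or more libraries, and p-values were adjusted by Benjamini-Hochberg over all of them. The fit had 7 residual degrees of freedom, which come from differences between the genotypes, and the genotype test had 6. Tests are two-sided and errors are standard errors from the fit. The regime differences at other times use other libraries.

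Named genes were PIF7, up to 10 highest and 10 lowest called genes of equal sign in both genotypes whose mean ZT20 TPM reached 5, up to 4 members per list by absolute difference, all PIF and phytochrome genes, the COR15 and LHCB2 genes, and 5 per direction in each other comparison, or the 5 smallest p where fewer than 5 passed. Not every gene so named is described. The 24 gene lists, the members and the tests were chosen with earlier results of these data known; identifiers of some list genes were set by hand from the RefSeq annotation, which matched 32835 genes. Lists are described by counts and medians. Alternatives were pseudocounts of 0.1 and 5, other filters and scalings, no variance trend, left-out times, fewer libraries and either ZT20 pair alone, and the fits were tested on simulated data. Promoter sequences were credited to and read from RefSeq TAIR10.1 by its own coordinates. Other software was Python 3.11.15 with numpy 2.4.6, pandas 2.3.3 and, for plots, matplotlib 3.10.9.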

Additional observations from a re-analysis of the deposited data

Results flagged for a closer look

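The regime difference at ZT20 was tested against that at other times, and the genes below passed in limma because their differences were unequal at the times compared. Against ZT16, 9 genes passed. LHCB2.2 had -2.55, CCA1 -2.55, LHCB2.1 -2.42, AT2G15020 -2.22 and COL2 -2.10 as the ZT20 minus the ZT16 difference.

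Against ZT0, 7 genes passed. AT1G55960 had 2.90, CCA1 -2.37, BBX25 -1.95, RVE8 -1.82 and COL9 -1.32 as the ZT20 minus the ZT0 difference.

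Against the mean of ZT5, ZT8 and ZT12, 1304 genes passed. COR15B had 7.06, COR15A 6.03, AT3G62550 2.91, AT3G15650 2.81 and RD29A 2.66 above the warm hours. LHCB2.1 had -4.10, LHCB2.2 -4.00, MBF1C -3.93, CCA1 -3.61 and AT2G15020 -3.50.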

How the results depend on the processing

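The regime difference was taken within each genotype in every fit, and the labels give no replicate numbers. The count of 184 genes at ZT20 was 122 with no filter on low values, 117, 99 and 115 without ZT4, ZT5 and ZT8, 344 from the 4 ZT20 libraries alone (126 higher and 218 lower, with 1 residual degree of freedom), 74 from the 16 libraries outside the warm window, 20 without the Col-0 pair and 57 without the pif7 pair. In those last fits the lone pair is assumed to vary like the other times. Under the remaining alternatives the count was within 1.5 times of 184. No gene of the 184 changed direction under the other pseudocounts, the other scalings or with either pair alone. The filters, the variance trend and the libraries left out from other times do not alter the ZT20 difference itself, so no sign could turn there. The 57 called list members were 34 with no filter. The cause of these shifts was not tested.

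The 9 genes of the ZT20 minus ZT16 test were 14 with a pseudocount of 0.1, 1 with no filter, 3 without ZT4 and 2 without the Col-0 pair. The 7 genes of the ZT20 minus ZT0 test were 3 with a pseudocount of 0.1, with TPM as deposited, with no variance trend, and without ZT4, ZT5, ZT8 or ZT12, 11 with a pseudocount of 5, 2 when a TPM of at least 1 was required in 2 of the ZT20 libraries, and 4 without ZT16 or without the Col-0 pair. The 1304 genes of the warm window test were 664 without ZT8, 321 without the Col-0 pair and 424 without the pif7 pair. The 0 genes of the genotype test became 27 with no filter (9 higher and 18 lower).

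The sign of some genes that never passed turned. UNE10 had 0.11 with TPM as deposited and PHYE -0.026 with quantile normalization. Without the Col-0 pair PIF5 had 0.19, PIF7 0.29, UNE10 0.17, AOC1 0.12, IRT1 -0.24 and OLEO4 0.25. Without the pif7 pair PIF6 had 0.15, PHYB -0.0067, PHYC -0.075, PHYD -0.16, PHYE -0.39, MBF1C 0.053, FAD2 -0.11, LOX2 -0.49, SCR -0.12, KAT1 -0.00042 and SDD1 -0.12.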
